A study of Mus musculus with 22 samples.

Results

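Mouse Hox genes sit in 4 clusters, and the 39 members counted here were chosen by their symbols (Hox, a cluster letter from a to d, and a paralog number). The tables of the cultured cells list 34866 genes and hold all 39. The table of cartilage tissue lists 23911 genes and holds 36, since Hoxb1, Hoxb13 and Hoxd12 are not among its rows. In GRCm38 coordinates from the GENCODE annotation, the Hoxa cluster holds 11 genes on chromosome 6, the Hoxb cluster 10 genes on chromosome 11 (96194316 to 96368256), the Hoxc cluster 9 genes on chromosome 15 (102921103 to 103036852) and the Hoxd cluster 9 genes on chromosome 2 (74668310 to 74765142).

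The study measured RNA in 22 libraries from mice whose gene for the maintenance DNA methyltransferase Dnmt1 was deleted with Prrx1-Cre, and in controls. Primary chondrocytes came from knee articular cartilage at postnatal day 3 to 5. Untreated cultures (day 0) comprised 3 control libraries of genotype Dnmt1 flox and 3 conditional knockout (cKO) libraries of genotype Prrx1-Cre;Dnmt1 flox/flox. Cultures given BMP2, a growth factor that drives cartilage differentiation, at a labelled 100 ng/µl for 3 days (day 3) comprised 4 libraries of each genotype. Cartilage of postnatal day 5 comprised 4 libraries labelled flox and 4 labelled cKO, each with 2 males (replicates 1 and 2) and 2 females (replicates 3 and 4). The Prrx1 promoter drives Cre in early limb mesenchyme, so cells of other lineages in a sample keep Dnmt1, and the control labels name no Cre. Total counts were 41749327 to 51741478 per library at day 0, 14434197 to 18918714 at day 3 and 1100198 to 1888896 in cartilage.

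Hox genes encode homeodomain transcription factors. Along each cluster, genes with low paralog numbers (anterior genes) are transcribed in more anterior and proximal parts of the embryo, and genes with high numbers (posterior genes, groups 9 to 13) in more posterior and distal parts. In the limb, groups 9 and 10 pattern the upper segment, group 11 the middle segment and group 13 the digits, and Hoxc9 to Hoxc11 are transcribed mainly in the hindlimb. Pitx1 and Tbx4 are transcription factors of the hindlimb, and Tbx5 is one of the forelimb. Hox loci are classic targets of Polycomb complexes, which silence genes through histone marks, and Trithorax proteins oppose them.

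Promoter windows of 300 bases (250 before and 50 after a start site, RefSeq, GRCm38.p6) were at hand for 22 of the 39 genes, in 24 windows. Since Dnmt1 copies methylation at CG dinucleotides, these were counted. Each of the 24 windows held at least 4, the median was 14.5 and the highest was 45, in Hoxa13. Over all 32851 windows of that table the median was 7, and 94.6% held at least 1. Windows are shown for Hoxd13, which was higher in the cKO cultures on both days, for Hoxb4, which was higher at day 3, and for Hoxa10, which was lower on both days. Each reads 5′ to 3′ on the strand of the gene, with every CG in capitals. The Hoxd13 window (chr2:74667975-74668274, plus strand) held 37 CG, the Hoxb4 window (chr11:96318017-96318316, plus strand) 14, and the upstream Hoxa10 window (chr6:52240805-52241104, minus strand) 12. A second Hoxa10 window inside the gene held 21.
Hoxd13: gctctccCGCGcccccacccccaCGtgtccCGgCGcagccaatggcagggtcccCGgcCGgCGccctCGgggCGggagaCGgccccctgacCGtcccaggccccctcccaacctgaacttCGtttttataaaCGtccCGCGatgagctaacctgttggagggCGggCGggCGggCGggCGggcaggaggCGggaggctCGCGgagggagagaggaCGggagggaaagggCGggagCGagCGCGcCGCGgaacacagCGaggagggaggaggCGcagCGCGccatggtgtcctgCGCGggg
Hoxb4: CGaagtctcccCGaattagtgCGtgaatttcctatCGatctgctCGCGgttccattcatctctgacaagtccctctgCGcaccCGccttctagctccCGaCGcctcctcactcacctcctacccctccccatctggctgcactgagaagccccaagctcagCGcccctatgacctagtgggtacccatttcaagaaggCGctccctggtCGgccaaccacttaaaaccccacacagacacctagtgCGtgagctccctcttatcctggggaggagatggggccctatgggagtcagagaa
Hoxa10: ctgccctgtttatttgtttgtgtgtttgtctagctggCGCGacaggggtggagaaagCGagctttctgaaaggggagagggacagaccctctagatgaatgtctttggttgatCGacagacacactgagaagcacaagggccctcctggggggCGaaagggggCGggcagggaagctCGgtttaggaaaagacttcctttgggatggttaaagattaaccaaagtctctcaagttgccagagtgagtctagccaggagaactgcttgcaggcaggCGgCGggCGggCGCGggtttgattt
Windows of other members that were called lower in the cKO cultures on at least 1 day held 4 (Hoxa9), 15 (Hoxa11), 26 (Hoxa6), 29 (Hoxa5) and 9 (Hoxc4) CG. Those of members called higher at day 3 held 6 (Hoxd8), 22 (Hoxd10) and 9 (Hoxa7), and that of Hoxd9, called lower at day 0 and higher at day 3, held 20. These letters are the reference sequence; methylation at them was not analysed here.

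The deleted gene was checked first. Levels are given as counts per library size (CPM, the field's usual unit), with library sizes adjusted by the TMM factors of edgeR. Dnmt1 was at 147 to 159 CPM in the control libraries of day 0 and at 25.7 to 31.3 CPM in the cKO libraries (log2 fold change -2.44 ± 0.07, SE). At day 3 the ranges were 64.9 to 83.5 and 11.6 to 36.4 CPM (-1.41 ± 0.31), and in cartilage 34.5 to 48.6 and 11.8 to 14.3 CPM (-1.66 ± 0.20). The groups did not overlap in any of the 3 settings.

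Some libraries stood apart before any comparison. In the day 3 cultures, cKO replicate 4 had a summed level of 8 chondrocyte markers of 1186 CPM, against 11684 to 16773 CPM in the other cKO libraries and 87527 to 107660 CPM in the controls. Its summed level of 10 skeletal muscle markers was 165 CPM, against 1265 to 2134 CPM in the other cKO libraries and 1.62 to 1.98 CPM in the controls. At day 3 Actc1, Myf5 and Pax7 were at 0 in the controls and Myf5 in the cKO libraries, and at day 0 Myf5, Myod1 and Pax7 were at 0 in the controls and Myl1 and Pax7 in the cKO libraries. All 8 muscle markers tested at day 3 and all 5 tested at day 0 were higher in the cKO cultures, where the day 0 sums were 71.0 to 75.8 CPM against 12.2 to 13.6 CPM. The 8 chondrocyte markers were all lower at day 0 (sums 46122 to 56097 against 124602 to 131642 CPM). Markers of other cell types differed as well, and their counts stand beside the shares of all genes. These were 33.0% higher and 31.6% lower at day 0 and 25.5% and 22.6% at day 3. At day 3, 2 of 2 tested adipocyte markers were higher (sums 14.4 to 22.1 CPM in the controls and 48.3 to 73.0 CPM in cKO, with Adipoq and Cidec at 0 in the controls). Of 3 tested blood and macrophage markers 2 were higher (4.92 to 7.41 and 8.74 to 18.6 CPM, with the globin genes Hba-a1 and Hbb-bs at 0 in both groups). Of 6 osteoblast markers 4 were higher (8382 to 9385 and 10217 to 13286 CPM), and 2 of 3 joint surface markers were (19.9 to 30.2 and 82.3 to 206 CPM). Of 5 tested tendon and fibroblast markers 1 was higher and 2 lower (107 to 251 and 85.7 to 142 CPM). Of 3 tested neural markers 1 was higher and 1 lower, and the 1 endothelial marker tested was not called. At day 0 the calls were 2 higher of 3 tested adipocyte and 3 of 4 blood and macrophage markers. They were 2 of 2 for endothelial and 2 of 3 for joint surface markers. Of 5 osteoblast markers 1 was higher and 2 lower, and of 6 tendon and fibroblast markers 3 were higher and 2 lower. Of 3 tested neural markers 2 were higher and 1 lower. The part of these cell types in the Hox results was not tested, and in bulk RNA fewer cells of a type and less RNA per cell cannot be told apart. In cartilage, cKO replicate 2 stood apart for the Hoxc cluster, as described below.

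Before any contrast, the control cultures already showed a clear order of Hox genes. Per kilobase of exon, Hoxa10 was the highest member at day 0, at 26.7 ± 0.875 CPM per kb (SD, n = 3). Hoxc10 (18.1 ± 0.419) and Hoxa11 (17.6 ± 0.694) followed on the same scale and did not differ beyond their spread. Hoxa9 stood at 6.42 ± 0.264, Hoxd8 at 3.53 ± 0.423, Hoxd9 at 2.81 ± 0.200 and Hoxa5 at 2.78 ± 0.113 CPM per kb, of which Hoxd9 and Hoxa5 did not differ beyond their spread. Group 13 was low: Hoxc13 had 0.517 ± 0.0660, Hoxa13 0.364 ± 0.0680 and Hoxd13 0.177 ± 0.0507 CPM per kb. The Hoxb cluster was nearly silent, with Hoxb9 the highest of its genes at 0.503 ± 0.0554 CPM per kb, and Hoxd12 had 0 counts in all 14 cultures. That 0 allows up to 3 counts, or 0.0557 to 0.0691 CPM per library at day 0, by counting error alone.

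The limb type genes were present too: Pitx1 was at 135 to 151 CPM, Tbx4 at 12.4 to 15.0 CPM and Tbx5 at 10.1 to 10.8 CPM in the control cultures of day 0. The knee label names a hindlimb joint, and the forelimb gene Tbx5 was also detected in these libraries.

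At day 0 Hoxc5, Hoxc6, Hoxc10 to Hoxc13, Hoxd13 and Hoxb2 were higher in the cKO cultures, and Hoxa9, Hoxa10, Hoxa11 and Hoxd9 were lower. Of the 39 members, 30 passed the filter on low counts and were tested with edgeR's quasi-likelihood test; 8 were higher and 4 lower in cKO at an adjusted p under 0.05 (Benjamini-Hochberg over all 15530 genes). Over all tested genes 33.0% were higher and 31.6% lower, so the members were called no more often than genes in general. By cluster, 6 of 9 tested Hoxc genes were higher and 0 lower, whereas 0 of 11 Hoxa genes were higher and 3 lower. Of 7 tested Hoxd genes, 1 was higher and 1 lower, and of 3 tested Hoxb genes, 1 was higher. The median log2 fold change was 0.77 for Hoxc, -0.28 for Hoxa and -0.10 for Hoxd, beside 0.01 over all genes. The plot by cluster and paralog number shows this.

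**Figure D1:**
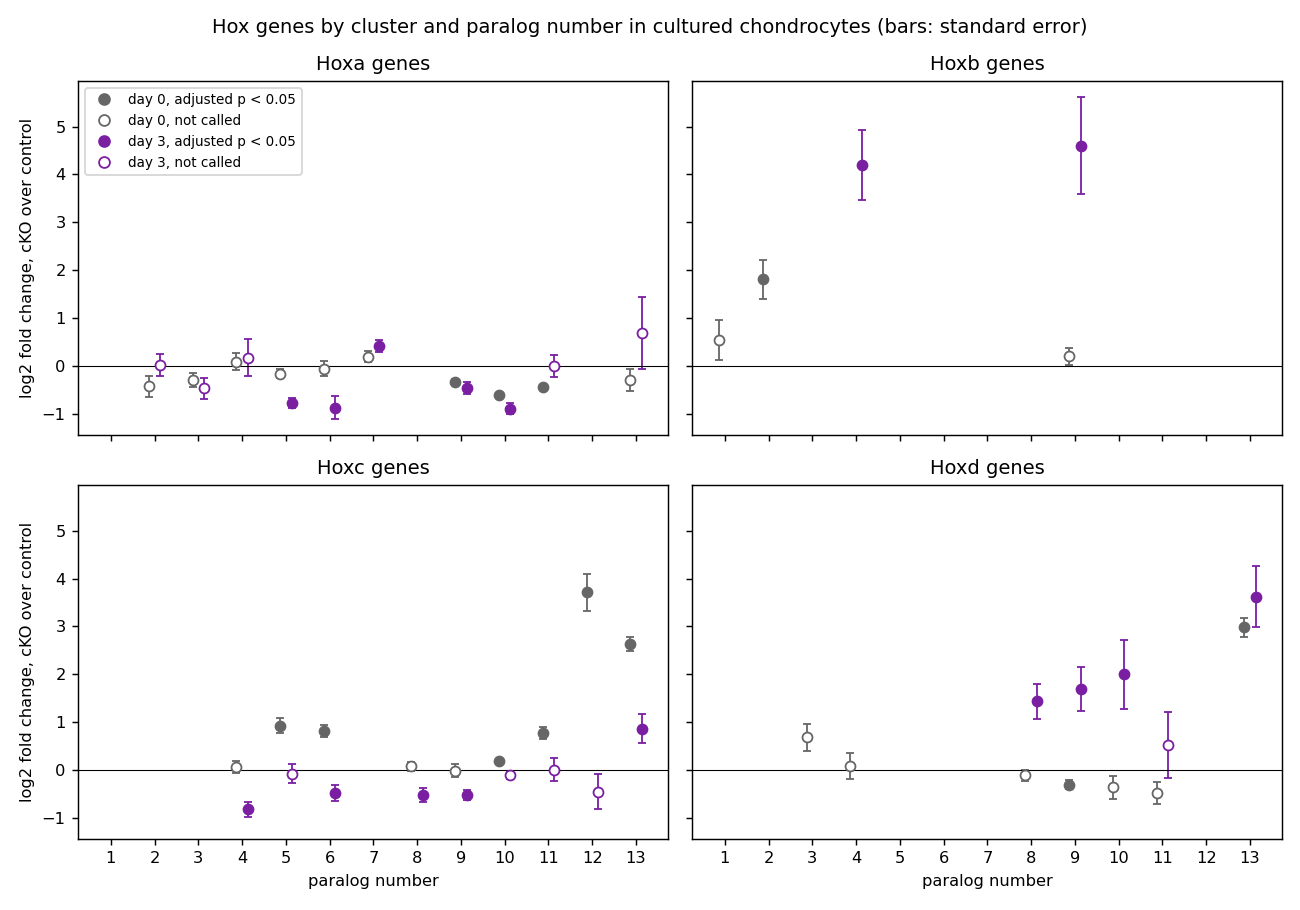
Log2 fold changes of cKO over control for the tested Hox genes described at day 0 (grey) and day 3 (purple), by cluster (panels) and paralog number (horizontal axis), with standard errors as bars and filled points for an edgeR adjusted p under 0.05. At day 0 the Hoxc points from number 10 to 13 and Hoxd13 lie above 0 and Hoxa9 to Hoxa11 below it, and at day 3 the tested Hoxd points lie above 0.

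Hoxd13, a digit gene of the limb bud, had 0.461, 0.305 and 0.554 CPM in the control replicates and 3.59, 3.39 and 3.43 CPM in the cKO replicates. The groups did not overlap (log2 fold change 2.98 ± 0.20, SE; edgeR adjusted p = 1.81e-06). Hoxc13, which acts in hair and nail as well as in the distal limb, rose from 1.30, 1.10 and 1.42 CPM to 8.63, 6.73 and 8.39 CPM (2.64 ± 0.14, edgeR adjusted p = 6.11e-07). Its cluster neighbour Hoxc12 had only 4, 3 and 3 counts in the controls against 56, 33 and 46 in cKO (3.71 ± 0.38, edgeR adjusted p = 2.68e-05). Hoxa13, the third group 13 gene tested, was not called: it had 0.775 to 1.09 CPM in the controls and 0.631 to 0.852 CPM in cKO, and the groups overlapped (-0.28 ± 0.23, edgeR adjusted p = 0.302). Hoxb13, the fourth, was below the filter, with 2 counts over the 3 controls and 22 over the 3 cKO libraries, a ratio of 10.9 (95% exact interval 2.69 to 96.0, for counting error only).

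Further along the Hoxc cluster the differences were smaller. Hoxc11 had 2.81, 3.17 and 3.45 CPM in the controls and 5.53, 4.71 and 5.86 CPM in cKO (0.77 ± 0.12). Hoxc10, a hindlimb gene and the Hoxc gene with the most counts, had 34.6, 33.7 and 35.3 CPM against 40.2, 36.9 and 40.8 CPM, a rise of 0.19 ± 0.05 that edgeR called (adjusted p = 0.00881). That call was lost when all 14 cultures entered a single fit (edgeR adjusted p = 0.0743). Hoxc6 rose from 3.49 to 4.89 CPM in the controls to 6.99 to 7.62 CPM in cKO (0.83 ± 0.13) and Hoxc5 from 1.04 to 1.31 CPM to 2.02 to 2.36 CPM (0.92 ± 0.16). Hoxc5 and Hoxc10 share 166 exon bases, so their counts are not fully separate. Values for Hoxc4, Hoxc8 and Hoxc9 overlapped between genotypes, with log2 fold changes of 0.07, 0.08 and -0.01.

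The most abundant member moved the other way. Hoxa10, a gene of the upper limb segment, had 84.1, 88.8 and 89.3 CPM in the controls and 54.6, 58.2 and 59.1 CPM in the cKO libraries. No cKO library reached a control, and the log2 fold change was -0.61 ± 0.04 (edgeR adjusted p = 2.04e-06). Hoxa11, which patterns the middle segment, fell from 38.7, 40.4 and 41.9 CPM to 29.2, 28.6 and 31.1 CPM (-0.44 ± 0.05, edgeR adjusted p = 5.06e-05). An antisense gene, Hoxa11os, overlaps 35.0% of the Hoxa11 exon sequence, and the sources used here do not give the strand setting of the counting. Hoxa9 fell from 34.1 to 36.7 CPM to 27.7 to 29.6 CPM (-0.32 ± 0.05). Their Hoxd counterpart Hoxd9 went from 5.74 to 6.50 CPM to 4.66 to 5.00 CPM (-0.30 ± 0.09, edgeR adjusted p = 0.0165). The Hoxa11 and Hoxd9 calls were lost in the single fit of 14 cultures (edgeR adjusted p = 0.108 and 0.576), and the Hoxd9 call also without control replicate 1 (edgeR adjusted p = 0.0645).

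Most other members were not called at day 0. Hoxb2, an anterior gene of hindbrain patterning, was the Hoxb gene called, at 6, 5 and 3 counts in the controls and 14, 21 and 15 in cKO (1.81 ± 0.40, edgeR adjusted p = 0.00322). Hoxa2 to Hoxa7 were all tested and none was called, with log2 fold changes from -0.42 (Hoxa2) to 0.20 (Hoxa7). Hoxd8, at 8.46 to 10.8 CPM in the controls and 7.90 to 9.92 CPM in cKO, overlapped between genotypes. Hoxd10 (-0.36 ± 0.24) and Hoxd11 (-0.47 ± 0.23) were not called either. The 9 members below the filter were Hoxb3 to Hoxb8, Hoxb13, Hoxd1 and Hoxd12.

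**Figure D2:**
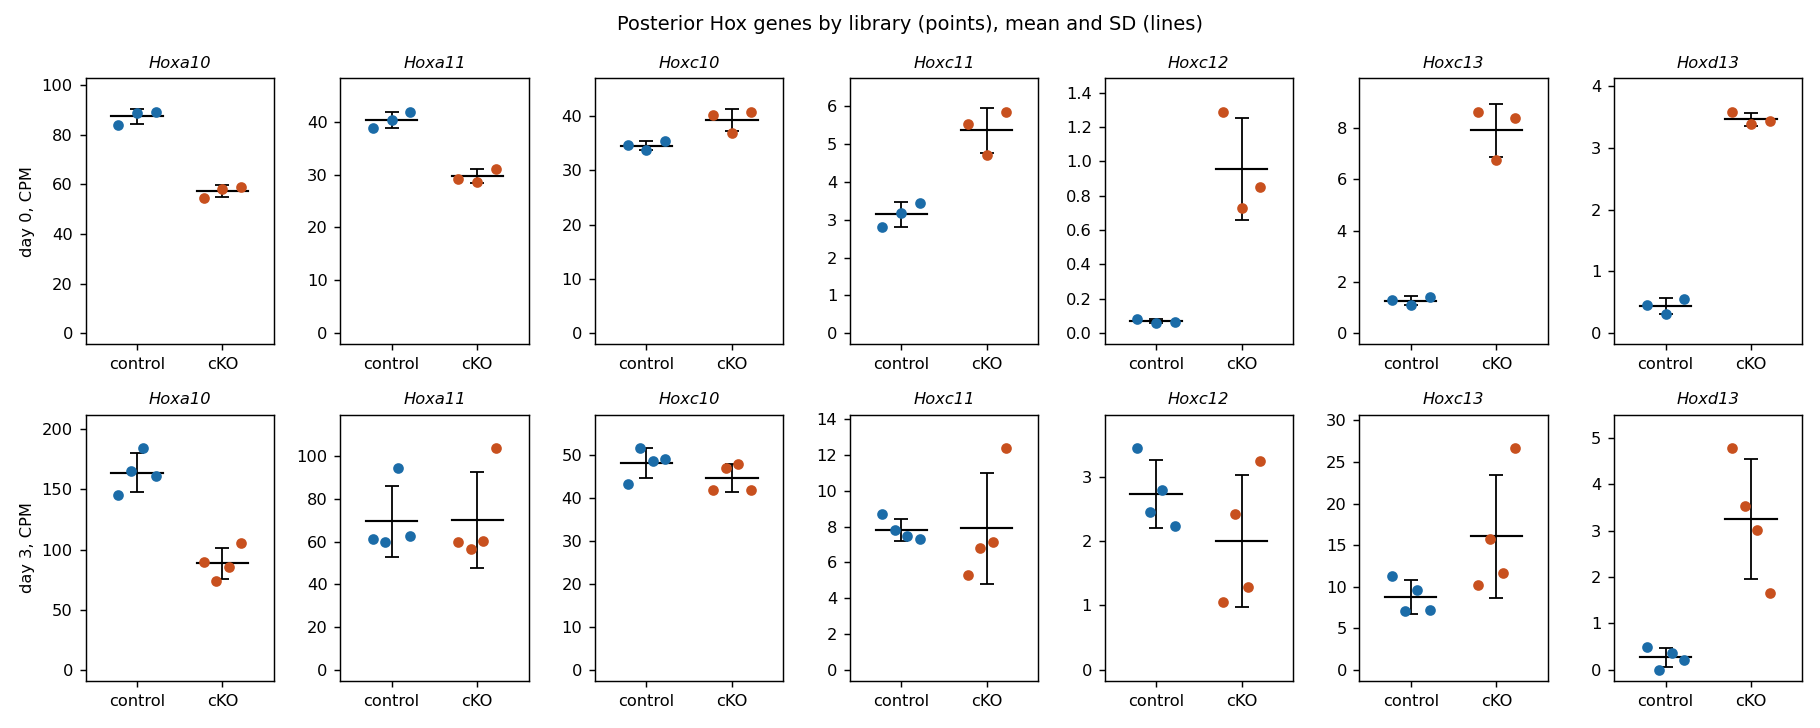
CPM of 7 posterior Hox genes in each library (points) of control and cKO cultures at day 0 (upper row) and day 3 (lower row), with group mean and SD as lines and a vertical axis of its own for each panel. Hoxa10 lies lower and Hoxd13 higher in every cKO library on both days, while the cKO libraries lie apart from the controls for Hoxc12 at day 0 and overlap them at day 3.

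At day 3 under BMP2, Hoxb and Hoxd genes were called higher and several Hoxa and Hoxc genes lower in cKO. Of 27 tested members, 8 were higher and 8 lower in cKO by edgeR, beside 25.5% higher and 22.6% lower over all 13924 tested genes, shares near those of the members. Of 5 tested Hoxd genes 4 were higher and 0 lower, and both tested Hoxb genes were higher. Of 11 Hoxa genes 1 was higher and 4 were lower, and of 9 Hoxc genes 1 was higher and 4 were lower. The median log2 fold change was 1.70 for Hoxd, 0.01 for Hoxa and -0.44 for Hoxc, beside 0.01 over all genes.

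Of the 22 members called on at least 1 day, 6 were called on both. The share of all genes called on both days was not computed, so this count has no background beside it. Hoxd13 and Hoxc13 were higher and Hoxa9 and Hoxa10 lower both times, and Hoxc6 and Hoxd9 changed direction. Hoxd13 was at 0.492, 0, 0.372 and 0.203 CPM in the controls and at 4.78, 3.53, 3.02 and 1.65 CPM in cKO, and so stayed apart in every library (3.62 ± 0.64, edgeR adjusted p = 0.00199). Hoxc13 had 11.3, 7.02, 9.60 and 7.23 CPM in the controls and 10.3, 15.7, 11.6 and 26.6 CPM in cKO, so the groups overlapped (0.87 ± 0.31, edgeR adjusted p = 0.0464). Its call was lost without any one of control replicates 2, 3 and 4 or cKO replicates 2 and 4, and was 0.51 ± 0.20 without cKO replicate 4 (edgeR adjusted p = 0.0529).

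Hoxa10 was again the most abundant member per kb (50.1 ± 4.88 CPM per kb in the 4 controls) and again lower in cKO. It had 145, 165, 184 and 161 CPM in the controls and 90.0, 74.1, 85.1 and 105 CPM in cKO, with no overlap (-0.89 ± 0.12, edgeR adjusted p = 0.000472). Hoxa9 went from 38.0 to 54.8 CPM to 31.2 to 39.3 CPM, with 1 control inside the cKO range (-0.45 ± 0.13, edgeR adjusted p = 0.0164). For Hoxa11 the lower level of day 0 was not seen: controls had 61.5, 59.8, 94.6 and 62.5 CPM and cKO libraries 59.9, 56.6, 60.5 and 104 CPM (0.01 ± 0.23). Hoxa13 was likewise high in control replicate 3 (7.56 CPM) and cKO replicate 4 (10.2 CPM), against 1.06 to 1.55 and 2.26 to 3.23 CPM in the others. Without control replicate 3 it was called higher in cKO (1.88 ± 0.60, edgeR adjusted p = 0.0373), and without cKO replicate 4 its log2 fold change was -0.04.

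The mid-cluster genes Hoxa5 and Hoxa6 were lower in cKO. Hoxa5, which acts in the trunk skeleton and lung, had 10.8, 12.4, 10.8 and 12.0 CPM in the controls and 6.99, 7.17, 6.69 and 6.06 CPM in cKO (-0.77 ± 0.11, edgeR adjusted p = 0.000584). Hoxa6 had 2.67 to 4.90 CPM against 1.77 to 2.70 CPM (-0.86 ± 0.23). The neighbouring Hoxa7 went the other way, from 8.61 to 10.1 CPM to 10.8 to 15.3 CPM (0.42 ± 0.13, edgeR adjusted p = 0.0266), and its call was lost without control replicate 3, control replicate 4 or cKO replicate 3.

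A set of 4 Hoxc genes was lower in cKO at this stage. Hoxc4 had 6.60, 6.19, 5.58 and 5.88 CPM in the controls and 4.25, 3.08, 3.29 and 3.19 CPM in cKO (-0.81 ± 0.15, edgeR adjusted p = 0.00291). Hoxc8 had 8.19 to 8.86 CPM against 4.59 to 6.71 CPM (-0.51 ± 0.14) and Hoxc9, of the hindlimb set, 9.29 to 11.0 CPM against 6.93 to 7.77 CPM (-0.51 ± 0.10). None of these 3 overlapped between genotypes. Hoxc6 did, at 13.9 to 20.8 CPM against 10.5 to 14.8 CPM (-0.47 ± 0.16, edgeR adjusted p = 0.0403), and with 1 library removed at a time it was no longer called in 6 of 8 fits. Hoxc10, Hoxc11, Hoxc12 and Hoxc5 were not called, with log2 fold changes of -0.11, 0.01, -0.44 and -0.07.

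Within the Hoxd cluster the 3 neighbours Hoxd8, Hoxd9 and Hoxd10 were higher in cKO replicates 1 to 3 and at control level in cKO replicate 4. Hoxd8 had 3.37, 3.57, 5.70 and 4.46 CPM in the controls and 14.2, 12.9, 14.9 and 4.41 CPM in cKO. Hoxd9, a group 9 gene of the upper limb segment, had 1.12, 1.73, 2.97 and 3.18 CPM against 9.50, 8.23, 9.06 and 2.45 CPM. Hoxd10 had 0.632, 0.334, 1.05 and 1.01 CPM against 3.85, 3.33, 4.69 and 0.245 CPM. So 3 cKO libraries lay above every control for each gene and the fourth lay among or below them. The log2 fold changes were 1.44 ± 0.37, 1.70 ± 0.47 and 2.0 ± 0.72 (edgeR adjusted p = 0.0116, 0.0162 and 0.0476). Without cKO replicate 4 they were 1.70 ± 0.18, 1.98 ± 0.29 and 2.38 ± 0.33 (edgeR adjusted p = 4.55e-05, 0.000362 and 0.000297). With other libraries removed 1 at a time, Hoxd10 was no longer called in any of those 7 fits. Hoxd11, at 0.111 to 0.946 CPM in the controls and 0.184 to 1.24 CPM in cKO, was not called.

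The forelimb gene Tbx5 split the same libraries, at 1.33, 2.01, 1.55 and 0.744 CPM in the controls and 5.30, 5.20, 6.20 and 0.245 CPM in cKO. It was not called over all libraries (1.58 ± 0.72, edgeR adjusted p = 0.101) and was called higher without cKO replicate 4 (1.96 ± 0.27, edgeR adjusted p = 0.000265). The hindlimb genes were lower in cKO in every library. Pitx1 had 115, 126, 129 and 124 CPM against 75.0, 78.7, 76.9 and 43.6 CPM (-0.85 ± 0.17, edgeR adjusted p = 0.00399), and Tbx4 had 16.2, 19.5, 19.1 and 12.8 CPM against 5.88, 6.11, 7.71 and 1.41 CPM (-1.67 ± 0.41, edgeR adjusted p = 0.00981). At day 0 these limb type genes had all been lower in cKO, Pitx1 by a log2 fold change of -0.40 ± 0.04, Tbx4 by -0.61 ± 0.09 and Tbx5 by -1.03 ± 0.16, and Isl1, which acts upstream in the hindlimb bud, had 1 to 3 counts per control and 10 to 22 per cKO library.

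**Figure D3:**
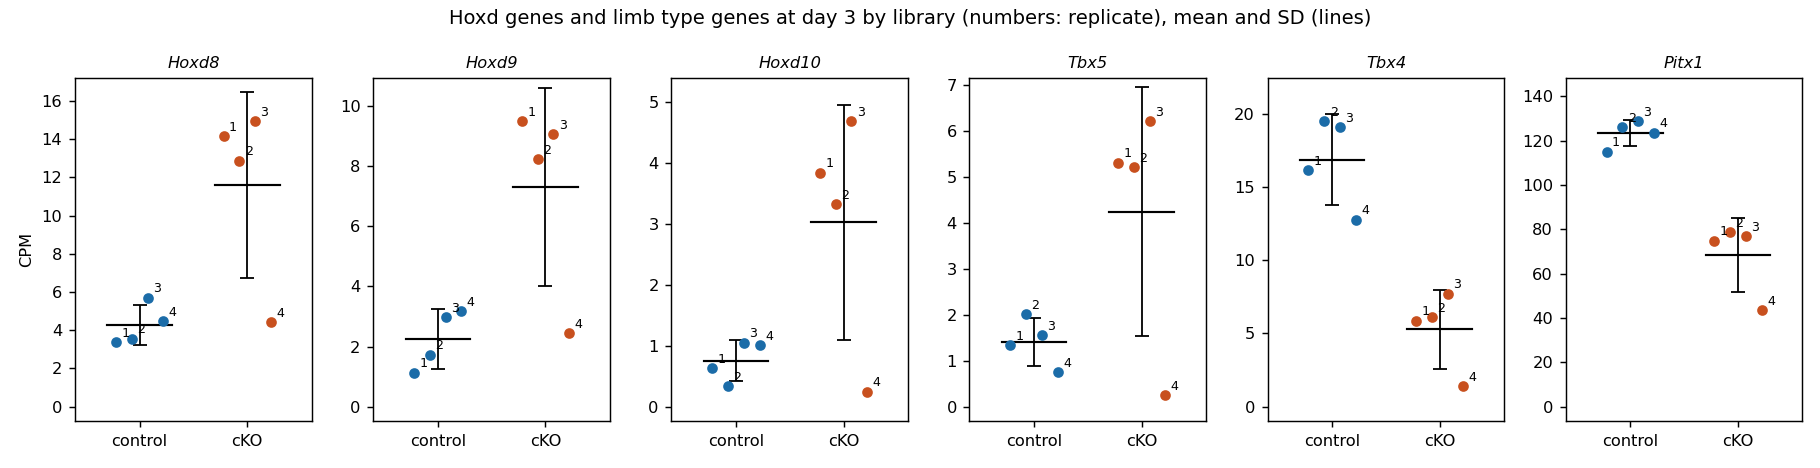
CPM of Hoxd8, Hoxd9, Hoxd10, Tbx5, Tbx4 and Pitx1 in each day 3 library (points with replicate numbers), with group mean and SD as lines and a vertical axis of its own for each panel. For the 3 Hoxd genes and Tbx5, cKO replicates 1 to 3 lie above all controls and cKO replicate 4 lies with or below the controls, while Tbx4 and Pitx1 are lower in all 4 cKO libraries.

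At day 3 the Hoxb genes other than Hoxb1 had few or no counts in the controls and more in the cKO libraries. Hoxb1 had 8, 6, 2 and 4 counts in the controls and 7, 5, 4 and 2 in cKO, and the groups overlapped. Hoxb2, Hoxb3, Hoxb5, Hoxb6 and Hoxb8 had 0 counts in all 4 control libraries and at least 1 in each cKO library. Hoxb4 had 0, 0, 1 and 2 counts in the controls and 21, 13, 11 and 26 in cKO (4.20 ± 0.72, edgeR adjusted p = 0.00177). Hoxb9 had 8, 2, 0 and 1 counts against 37, 38, 38 and 194 (4.60 ± 1.01, edgeR adjusted p = 0.00575), the highest being cKO replicate 4. Without that library the Hoxb9 log2 fold change was 3.48 ± 0.62 and the Hoxb4 one 3.90 ± 0.71, and both stayed called. In all, 8 of the 10 Hoxb genes were higher in every cKO library than in every control, as were 18.2% of all genes with a count at day 3.

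For genes at 0 in the controls only a lower bound of the fold can be given, here against a floor of 3 counts over the control group. The cKO counts were taken as they stand, so these bounds leave out the counting error of the cKO side. Hoxb3 was at least 10.2-fold higher in cKO (35 counts over the group), Hoxb6 at least 9.08-fold (31 counts), Hoxb2 at least 8.78-fold (30 counts), Hoxb8 at least 6.74-fold (23 counts) and Hoxb5 at least 2.34-fold (8 counts). An antisense gene, Hoxb3os, overlaps 52.9% of the Hoxb3 exon sequence and 27.3% of that of Hoxb2. As the strand setting of the counting is not given, counts of these genes may include antisense reads. Hoxb4, at 3 control counts, had a ratio of 20.8 (95% exact interval 6.83 to 103), and Hoxb7, at 1, a ratio of 29.0 (4.85 to 1179), for counting error only. These genes were below the filter except Hoxb4 and Hoxb9. In the edgeR fit with no filter, 7 of 10 Hoxb genes were higher, beside 16.7% of all genes, and Hoxb1, Hoxb5 and Hoxb13 were not called. Summed over the cluster, CPM were 0.186 to 1.12 in the controls and 4.91 to 17.4 in cKO, the top value again in replicate 4. At day 0 the sums were 1.57 to 1.97 and 2.56 to 3.38 CPM.

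**Figure D4:**
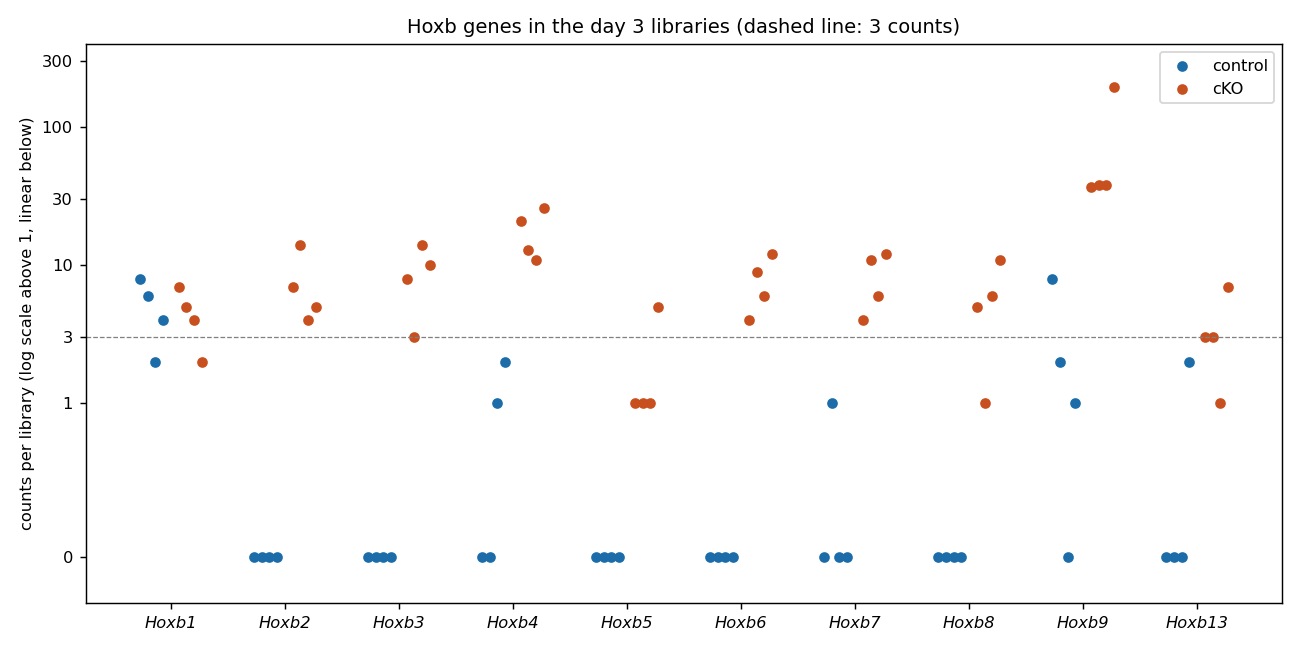
Counts of the 10 Hoxb genes in each day 3 library, controls in blue and cKO in orange, on an axis that is logarithmic above 1 and linear below, with a dashed line at 3 counts. For 8 genes every cKO point lies above every control point, and 5 of these have only zeros among the controls.

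The change from day 0 to day 3 differed between genotypes for 10 of 27 members, tested as an interaction of day and genotype over the 14 cultures. Over all 14909 genes of that fit, 9.94% had a higher and 6.89% a lower genotype effect at day 3. The difference was positive for 3 members and negative for 7. In the control cultures 16 of 27 members rose with day and 3 fell, beside 28.1% and 28.8% of all genes. In the cKO cultures 12 rose and 0 fell by edgeR, beside 32.4% and 29.8%; 0 members fell at an unadjusted p under 0.05 and 0 by DESeq2. Day, BMP2 and the count table change together, so these cannot be told apart. On the scale of the joint fit, the Hoxc genes rose in the controls: Hoxc6 from 4.25 ± 0.763 CPM (SD, n = 3) to 18.4 ± 3.21 CPM (n = 4), against 7.56 ± 0.343 to 13.1 ± 2.14 CPM in cKO.

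Hoxc12 was the extreme case, from 0.0734 ± 0.0125 to 2.66 ± 0.516 CPM in the controls and from 0.999 ± 0.308 to 1.92 ± 0.959 CPM in cKO. The interaction was -4.15 ± 0.58 (SE, log2, edgeR adjusted p = 0.000639). Hoxc13 rose from 1.32 ± 0.171 to 8.56 ± 1.99 CPM in the controls and from 8.27 ± 1.08 to 15.4 ± 6.86 CPM in cKO, with an interaction of -1.79 ± 0.41 (edgeR adjusted p = 0.0106). Both genes were higher in cKO than in control before BMP2, and on the log2 scale their rise with day was smaller in cKO. Hoxc4, Hoxc5, Hoxc6, Hoxc8 and Hoxa5 also had negative interactions, from -1.32 to -0.61. The 3 positive ones were Hoxb9, Hoxd8 and Hoxd9, which fell in the controls and were not called between days in cKO. Hoxd9 went from 6.26 ± 0.445 to 2.19 ± 0.959 CPM in the controls and from 5.09 ± 0.192 to 7.07 ± 3.21 CPM in cKO (1.99 ± 0.55, edgeR adjusted p = 0.0267). Hoxd8 had an interaction of 1.53 ± 0.45 and Hoxb9 of 4.38 ± 1.10. With 1 of the 14 libraries removed at a time, Hoxd8 was no longer called in 12 fits, Hoxc8 in 8, Hoxd9 in 7 and Hoxc5 in 3.

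In cartilage of postnatal day 5 no Hox gene was called between genotypes. Only 10 members passed the filter, and 17 of the 36 listed had at most 3 counts in every library. Of the 10 tested, 0 were called by edgeR, 1 had an unadjusted p under 0.05 (Hoxa9) and 0 were called by DESeq2, beside 3.15% higher and 3.04% lower over all 8793 genes. Hoxa9 had 48.8, 45.2, 52.3 and 34.5 CPM in the controls and 32.7, 26.2, 45.5 and 25.8 CPM in cKO (-0.45 ± 0.21, edgeR adjusted p = 0.217), and the groups overlapped. Hoxa10 had 60.8, 54.6, 44.9 and 51.0 CPM against 49.5, 35.0, 48.2 and 48.2 CPM (-0.22 ± 0.16, edgeR adjusted p = 0.444). The barcode list puts the control libraries in pool 1 and the cKO libraries in pool 2, so pool and genotype cannot be told apart here. Marker sums also differed: chondrocyte markers summed to 61839 to 92964 CPM in the controls and 27759 to 57691 CPM in cKO (2 of 8 lower), and the 8 muscle markers listed to 12.8 to 17.3 and 58.9 to 91.0 CPM (both tested ones higher). Myh3 was at 0 in the controls and Myf5 and Myog in cKO. Of 3 tested blood and macrophage markers 2 were lower in cKO, both globin genes: Hbb-bs at -1.92 ± 0.47 and Hba-a1 at -1.90 ± 0.43 (sums of the list 161 to 780 CPM in the controls and 21.0 to 351 CPM in cKO). Osteoblast markers summed to 42968 to 81579 and 20992 to 49713 CPM, and the 4 tested had log2 fold changes from -1.13 (Ibsp) to -0.77 (Col1a2), with edgeR adjusted p from 0.0809 (Sp7) to 0.326 (Ibsp). The part of these cell types in the Hox values was not tested. Hoxd13 and Hoxc13 were below the filter and not tested. Hoxd13 had 1 count over the 4 controls and 7 over the 4 cKO libraries (ratio 8.40, 95% exact interval 1.08 to 378, for counting error only), and Hoxc13 had 0 and 2.

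Several Hoxc genes varied widely within the cKO group. Hoxc10 had 48.8, 55.5, 37.6 and 59.2 CPM in the controls and 49.5, 0.875, 59.8 and 69.8 CPM in cKO, where replicate 2 (male) held 1 count. Hoxc9 had 18.0 to 22.5 CPM in the controls and 24.4, 5.25, 37.5 and 28.4 CPM in cKO. Hoxc8 had 19.6 to 27.02 CPM and 34.4, 9.62, 27.7 and 27.6 CPM, and Hoxc6 9.17 to 16.0 CPM and 13.4, 2.62, 13.4 and 19.8 CPM. Replicate 2 was the lowest of all 8 libraries for each of these 4 genes, and its Hoxc sum of 21.0 CPM stood against 101 to 160 CPM in the other 7. The hindlimb genes were low there too: Pitx1 was at 5.25 CPM against 63.8 to 90.1 CPM in the other 7 libraries, and Tbx4 at 2.62 against 10.1 to 18.7 CPM. Its Tbx5 level was 18.4 CPM, next to 18.3 CPM in control replicate 3 and 3.45 to 10.1 CPM in the other 6.

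The same library was not low for the other clusters in the same way. Hoxd8 was at 42.0 CPM in it, above the highest control (41.3 CPM), Hoxd9 was at 27.1 CPM, inside the control range of 13.5 to 27.3 CPM, and Hoxa10 was at 35.0 CPM, the lowest of 8. The deposited table of estimated counts showed the low Hoxc10 and Pitx1 levels of replicate 2 as well, at 2.26 and 8.46 CPM. The label of this library says only cartilage, and what moved these genes together was not tested. Without it, the log2 fold changes were 0.21 ± 0.19 for Hoxc10, 0.56 ± 0.22 for Hoxc9, 0.33 ± 0.20 for Hoxc8 and 0.34 ± 0.29 for Hoxc6, against -0.23 ± 0.43, 0.22 ± 0.34, 0.06 ± 0.28 and 0.06 ± 0.36 with it. None of the 4 was called either way.

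**Figure D5:**
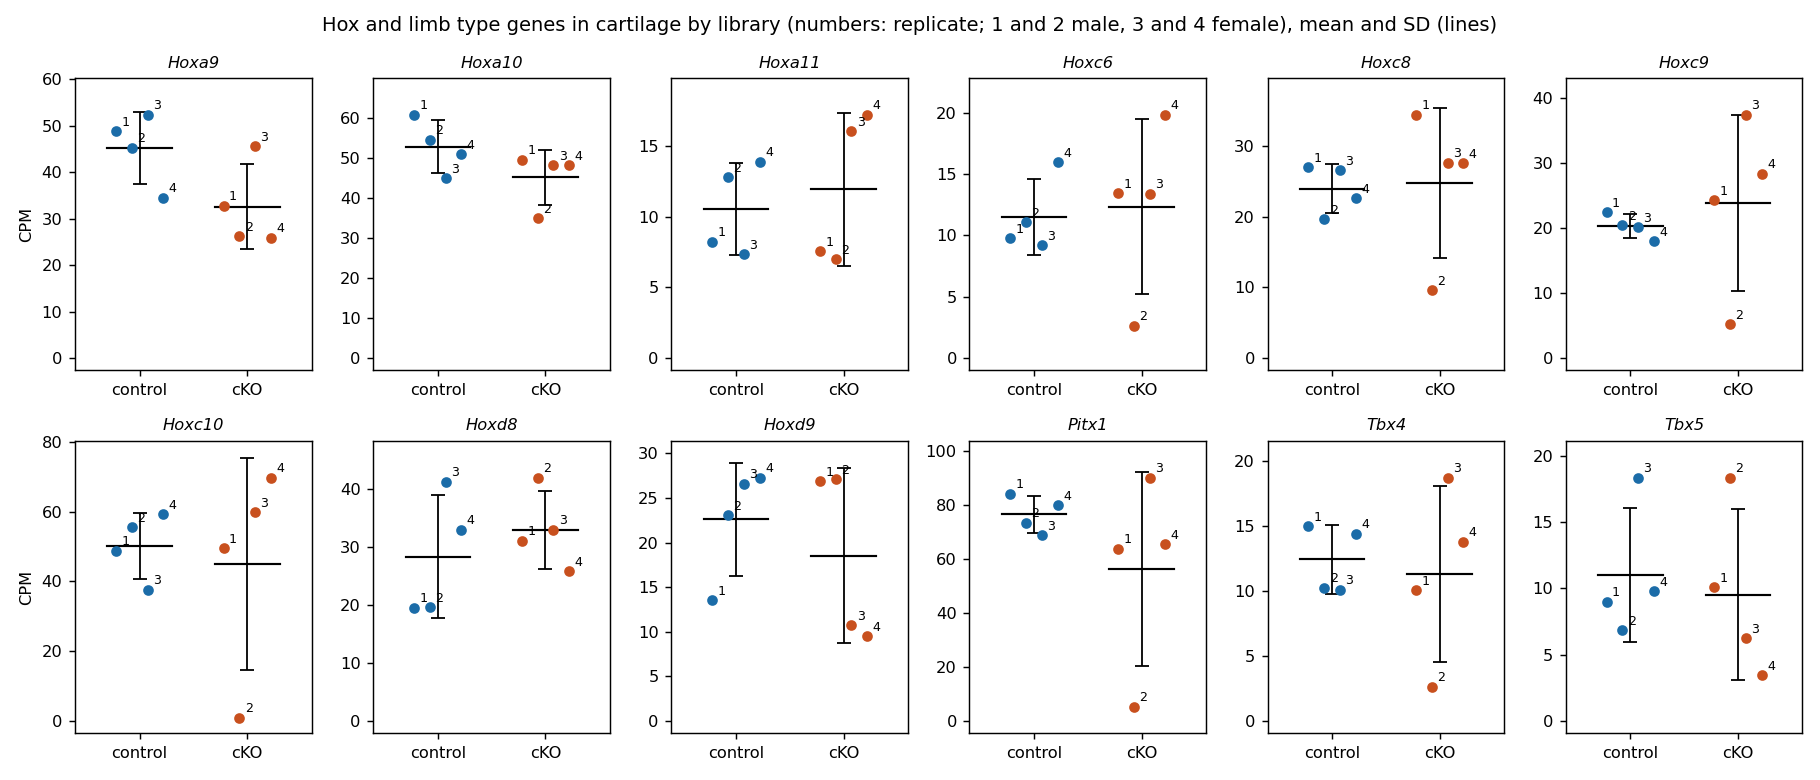
CPM of 9 Hox genes and 3 limb type genes in each cartilage library (points with replicate numbers, 1 and 2 male, 3 and 4 female), with group mean and SD as lines and a vertical axis of its own for each panel. In cKO replicate 2, Hoxc10 (0.875 CPM), Hoxc9, Hoxc8, Hoxc6, Pitx1 and Tbx4 are the lowest of the 8 libraries.

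The sexes differed in no Hox gene's response past the threshold. In the interaction of sex and genotype, 0 of 10 tested members were called by edgeR, 3 had an unadjusted p under 0.05 and 0 were called by DESeq2, beside 0.0103% of all 9687 genes. Hoxd9 had 26.9 and 27.1 CPM in the cKO males and 10.7 and 9.48 CPM in the cKO females, against 13.5 and 23.0 CPM in the control males and 26.6 and 27.3 CPM in the control females. Its interaction was -1.99 ± 0.46 (female minus male effect, edgeR adjusted p = 0.871), and with no filter on low counts it was called (edgeR adjusted p = 0.0363). Hoxd8 (-1.21 ± 0.38) and Hoxc9 (1.32 ± 0.59) were the other two with a low unadjusted p. Each sex of each genotype had 2 libraries, and the cKO males include replicate 2, described above. That library had 5.25 CPM of Hoxc9, against 24.4 CPM in the other cKO male. For Hoxd8 the same libraries had 42.0 and 31.1 CPM.

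The partners and regulators of the Hox genes were described from fixed lists, whose counts stand beside 33.0% higher and 31.6% lower over all genes at day 0 and 25.5% and 22.6% at day 3. Of the 9 homeodomain cofactors (Pbx, Meis and Pknox genes, whose products bind DNA with Hox proteins), 5 were higher and 3 lower in cKO at day 0, and 4 of 8 tested were higher and 0 lower at day 3 by edgeR. DNA-binding partner Meis2 rose by 0.68 ± 0.08 at day 0 and 1.32 ± 0.45 at day 3, and Meis1, its relative, by 0.40 ± 0.13 and 0.79 ± 0.15. Pknox2 fell by 1.19 at day 0.

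Polycomb genes were counted beside the same shares of all genes, 33.0% and 31.6% at day 0 and 25.5% and 22.6% at day 3. Of 12 genes of Polycomb repressive complex 2, which methylates histone H3, 7 were higher and 2 lower at day 0 and 1 was higher and 2 lower at day 3. The catalytic subunit Ezh2 rose at day 0 (0.41 ± 0.04), the accessory gene Epop rose on both days (1.47 ± 0.10 and 0.96 ± 0.21), and the histone-binding subunit Rbbp7 fell on both (-0.52 ± 0.03 and -1.36 ± 0.17). Some forms of Polycomb repressive complex 1 bind methylated histone H3 and compact chromatin. Of 20 genes listed for this complex, 6 were higher and 8 lower at day 0 and 4 higher and 3 lower at day 3. Among them Bcor rose by 1.52 ± 0.06 and 1.32 ± 0.25 and the chromodomain gene Cbx7 by 2.19 ± 0.21 and 1.65 ± 0.23. Its relative Cbx6 was lower on both days (-0.31 ± 0.04 and -0.63 ± 0.11). Of 10 Trithorax and demethylase genes, 5 were higher and 3 lower at day 0 and 1 was higher and 1 lower at day 3, with Kmt2a, a histone methyltransferase of Hox loci, at 0.48 ± 0.04 on day 0. In cartilage the calls on these 4 lists and the 2 below were Pcgf5 (-0.90 ± 0.19) and Psip1 (0.65 ± 0.17) alone.

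The list of upstream regulators held 13 genes, among them retinoic acid genes, which set Hox boundaries in the embryo. Of 7 tested at day 0, 5 were higher and 1 lower, and of 6 at day 3, 3 were higher and 1 lower, beside 33.0% and 31.6% of all genes at day 0 and 25.5% and 22.6% at day 3. The retinoic acid receptor Rarg fell by 0.63 on the log2 scale at day 0 and by 1.11 at day 3, Rara rose by 0.96 ± 0.09 and 0.55 ± 0.10, and the retinoic acid hydroxylase Cyp26b1 by 0.83 ± 0.11 and 1.57 ± 0.14. Gdf11, a growth factor that sets the trunk to hindlimb boundary, rose by 1.49 ± 0.11 and 1.48 ± 0.24.

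The genes next to the clusters were also counted, beside 33.0% and 31.6% of all genes at day 0 and 25.5% and 22.6% at day 3. Of 11 tested neighbours 5 were higher and 2 lower at day 0, and of 10 at day 3, 5 were higher and 1 lower. Beside the Hoxd cluster, Mtx2, a mitochondrial import gene, rose by 0.39 ± 0.07 and 0.81 ± 0.08, and Atf2, a transcription factor, by 0.52 ± 0.04 and 0.24 ± 0.09. Beside the Hoxa cluster, the metabolic enzyme gene Hibadh fell by 0.48 and 0.38 on the log2 scale. Another gene on that side list, Snx10, went the other way and rose by 0.22 ± 0.07 and 0.81 ± 0.15. For the inside of the clusters, 54 other symbols from a fixed list and the annotation were looked for. Of these, 4 were listed in the culture tables and 20 in the cartilage table. Those tested were not called: Gm28230, 5730596B20Rik and Gm28308 at day 0 (0.03, -0.18 and -0.14), the last 2 at day 3 (-0.50 and -0.31), and Gm11539 in cartilage (1.10 ± 0.38, edgeR adjusted p = 0.105). The annotation types Gm28230, 5730596B20Rik and Gm28308 as protein coding. Each shares exon bases with Hox genes, and Gm28230 overlaps 53.1% of the Hoxd3 exon sequence.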

How the data were processed

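RNA was measured in 14 cultures (day 0 and day 3) and 8 cartilage samples. For the cultures, directional libraries were made per the labels' protocols; the authors deposited estimated counts per gene, which were rounded. For cartilage, BRB-seq libraries, which count molecules at the 3′ end, were made per the labels' protocols; the deposited whole-number count table was used, and the deposited estimated counts served as an alternative. The submitters' processing notes name GRCm38 and, for cartilage, UMI-tools 1.1.1, Trim Galore 0.6.7, HISAT2 2.2.1, featureCounts 2.0.1 and DESeq2 1.34.0; the aligner of the cultures is not given in the sources used here. Symbols came from GENCODE M21 for 34652 of 34866 identifiers.

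Counts were tested with edgeR 4.0.16 (R 4.3.3): TMM normalization, filterByExpr (minimum count 10, minimum total 15), the quasi-likelihood test and Benjamini-Hochberg adjustment over all tested genes, called under 0.05. The sex was a covariate in cartilage, and a joint fit of the 14 cultures gave the day contrasts and the interaction. Levels between genes were compared per kb of exon, in cultures only. DESeq2 1.42.0, other size factors, no filter, a replicate block and leaving out each library were alternatives. The fits were also run on simulated counts with few planted changes. Such counts do not test normalization under changes as broad as those of the cultures. A floor of 3 counts and 95% exact intervals cover counting error only. The labels call culture replicates biological without naming animals, so p-values measure the spread between these samples.

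Named genes were the members (1 of the 39 is counted in totals but is not reported here), with values per sample for those called whose mean log2 CPM reached 1, and up to 3 called genes of each other list with the smallest adjusted p, plus Dnmt1 and every tested gene inside the clusters. The members and lists were chosen with earlier results of these data known.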

Additional observations from a re-analysis of the deposited data

Results flagged for a closer look

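At day 3 and in cartilage, 90 groups of 4 libraries were examined for a single library far from the other 3; 11 were found, and chance alone gives about 1 in 20. At day 3, cKO replicate 4 stood apart for Hoxa11 (104 CPM), Hoxa13 (10.2 CPM), Hoxb9 (11.9 CPM), Hoxc6 (10.5 CPM), Pitx1 (43.6 CPM) and Tbx5 (0.245 CPM). Control replicate 3 stood apart for Hoxa11 (94.6 CPM) and Hoxa13 (7.56 CPM), and control replicate 1 for Hoxc6 (13.9 CPM). In cartilage, cKO replicate 4 stood apart for Hoxa5 (7.75 CPM) and cKO replicate 2 for Hoxa10 (35.0 CPM). The low Hoxc10 (0.875 CPM) and Pitx1 (5.25 CPM) levels of cKO replicate 2 were not among the 11.

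The genotype effect differed between day 0 and day 3, by the interaction test, for 10 members. The difference (day 3 minus day 0, log2) was -4.15 for Hoxc12, -1.79 for Hoxc13, -1.32 for Hoxc6, -1.01 for Hoxc5, -0.90 for Hoxc4, -0.64 for Hoxa5 and -0.61 for Hoxc8. It was 4.38 for Hoxb9, 1.99 for Hoxd9 and 1.53 for Hoxd8.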

How the results depend on the processing

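At day 0 the fit of 14 cultures called 6 members higher and 2 lower, in place of 8 and 4. Other counts of called members stayed within 1.5 times of their reported value under the alternatives run, except as follows. At day 3 the fit with a replicate block, which treats same-numbered libraries as pairs, called 10 members (4 higher, 6 lower) in place of 16. The labels do not say that the numbers pair samples. Deviations of same-numbered day 3 libraries correlated at -0.14 to -0.06. No day 3 control library correlated best with the cKO library of its own number. Control replicate 3 of day 0 (0.14) and control replicates 1 (0.26) and 2 (0.08) of cartilage did. The numbers were not taken as pairs. At day 0 and in cartilage the block gave 12 and 0 calls, as without it. For the interaction of day and genotype, DESeq2 called 16 in place of 10, and leaving out a library gave 6 to 13. For the interaction of sex and genotype, the fit with no filter called 1 (Hoxd9) in place of 0. The cause was not tested.

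Log2 fold changes that changed sign belonged to members and limb type genes that were not called in that comparison. At day 3, Hoxa11 was -0.0064 with no filter, -0.0097 with the block and -0.00949 in the fit of 14 cultures, and Hoxc11 was -0.00556, -0.0525 and -0.00925 in the same order. In cartilage, Hoxc8 was -0.081 and Tbx5 0.0671 with the estimated counts. Leaving out 1 library at a time gave the following ranges. At day 0 they were Hoxa4 -0.0264 to 0.17, Hoxa6 -0.13 to 0.0761, Hoxc4 -0.00458 to 0.15, Hoxc9 -0.14 to 0.10 and Hoxd4 -0.10 to 0.25. At day 3 they were Hoxa11 -0.24 to 0.19, Hoxa13 -0.0423 to 1.88, Hoxa2 -0.0875 to 0.20, Hoxa4 -0.0295 to 0.58, Hoxc11 -0.29 to 0.16 and Hoxc5 -0.18 to 0.0311. In cartilage they were Hoxa11 -0.10 to 0.34, Hoxc10 -0.51 to 0.21, Hoxc6 -0.19 to 0.34, Hoxc8 -0.26 to 0.33, Hoxc9 -0.0194 to 0.56, Tbx4 -0.46 to 0.11 and Tbx5 -0.70 to 0.13. In cartilage 29 of the 39 members were not tested: 3 are not rows of the table used and the others were below the filter on low counts.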
